A study of Mus musculus with 15 samples.

Results

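The splicing factors described here are 69 genes whose array symbols begin with Snrp, Lsm, Sf3a, Sf3b, Prpf, Srsf (older Sfrs) or Hnrnp. They were chosen by name alone, from 18193 genes that have a probe set annotated with a single symbol, and Lsm14a and Lsm14b were left out. The 69 genes have 189 such probe sets, and each gene is represented by the probe set with the highest mean over the 15 arrays. They comprise 9 Snrp, 10 Lsm, 3 Sf3a, 6 Sf3b, 12 Prpf, 10 Srsf and 19 Hnrnp genes.

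Splicing removes introns from newly made RNA in the nucleus. The spliceosome is built from small nuclear ribonucleoproteins (snRNPs), in which rings of Sm or LSm proteins hold the small nuclear RNAs, and from proteins such as the SF3A and SF3B complexes, which help the U2 snRNP to settle on the branch point of the intron. SR proteins and hnRNPs bind exons and introns and steer which splice sites are used. A full-grown oocyte stores much of the messenger RNA it will need, stops transcription, and during meiotic maturation degrades part of that store while it lengthens or shortens the poly(A) tails of other transcripts.

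The series measured poly(A) RNA of mouse oocytes on Affymetrix arrays, from females of the B6D2F1 hybrid strain that had received PMSG, a gonadotropin that drives follicle growth. Germinal vesicle (GV) oocytes, which still have an intact nucleus, were taken 48 h later from adult females of 7 to 8 weeks (n = 2). Metaphase II (MII) oocytes, the mature stage at which an egg is ovulated, came from adults after maturation in vivo (n = 3), which was induced with the ovulatory hormone hCG, or after 16 h of maturation in culture (n = 2). From peripubertal females of 26 days, MII oocytes were obtained by either route (n = 2 in vivo, n = 3 in vitro), and from prepubertal females of 20 days in vitro alone (n = 3). Each array held a pool of 150 oocytes, which limits every value to a mean over that pool, and cumulus cells had been stripped with hyaluronidase in all groups. The RNA was selected on oligo(dT) and amplified over 2 cycles, so a transcript with a shorter poly(A) tail and a less abundant transcript cannot be told apart, nor can fewer intact cells and less RNA per cell. Whether different pools hold oocytes of different animals is not given in the labels, and the spread that the p-values rest on may therefore be technical.

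The arrays differed in brightness. A deposited intensity above 200 was reached by 9696 and 9819 probe sets on the GV arrays and by 4882 to 6734 on 9 of the 13 MII arrays. On the other 4 arrays (d26 in vitro replicates 2 and 3 and, of the adult MII arrays, in vivo replicate 1 and in vitro replicate 2), called dim below, 2615 to 3042 probe sets reached it. The 3' to 5' signal ratio of the Gapdh control, which can reflect RNA or amplification quality, was 68.0 and 82.3 on the d26 in vivo arrays and 2.27 to 26.8 on the others. The 5' signal itself was 0.76 and 3.99 on the d26 in vivo arrays, 0.90 to 9.54 on the 4 dim arrays and at most 77.1 elsewhere. Ratios that rest on such low 5' signals are imprecise. Values below are log2 intensities after quantile normalization unless stated, which puts all arrays on the same distribution, and a level of one gene is not comparable with that of another gene. Of 15 oocyte marker genes 14 had a probe set, and 13 or 14 of these averaged above the filter level in every group. Their level was not steady. The median normalized value was 12.19 and 12.74 on the GV arrays, 9.91 to 9.99 in adult in vivo and 9.88 and 9.996 in adult in vitro MII oocytes. The summed deposited intensity of the oocyte markers was 105749 and 106556, 19907 to 59325, and 13048 and 37988 in these groups. The summed deposited intensity of 18 cumulus and granulosa cell markers was 1004 to 1137 in GV oocytes, 382 to 1121 in adult in vivo and 350 to 683 in adult in vitro MII oocytes. That of 13 leukocyte markers was 295 to 338, 243 to 628 and 76.9 to 158, and that of 9 oviduct markers was 301 to 310, 171 to 786 and 40.9 to 117, in the same order. The median normalized value of the leukocyte markers was 1.42 and 1.95 on the GV arrays, 3.60 to 5.04 after adult maturation in vivo and 2.73 and 2.96 in vitro, so the 3 groups did not overlap. For the cumulus markers it was 4.07 and 4.21, 4.25 to 4.86, and 3.62 and 4.203, and for the oviduct markers 3.22 and 3.27, 4.09 to 4.25, and 1.47 and 3.64. Their part in the results below was not tested.

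A filter on low signal, a mean normalized value of at least 3.07, left 65 of the 69 genes to be tested. Snrpn, Lsm2, Prpf40b and Srsf12 did not pass it. The files hold no detection calls, so values near or under 3.07 may be background, and the size of a difference that ends there is imprecise.

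The first question was how these transcripts differ between GV and MII oocytes of adult females. After maturation in vivo 24 of the 65 genes were higher at MII and 16 lower at an adjusted p below 0.05 (limma, Benjamini-Hochberg over all probe sets tested). That is 36.9% and 24.6% of the genes tested, against 18.3% and 12.3% of all 12028 genes tested. After maturation in vitro 24 were higher and 16 lower as well, against 18.4% and 12.9% of all genes. The median log2 difference of the 65 genes was 0.41 in vivo and 0.25 in vitro, beside 0.26 and 0.13 over all genes. Both comparisons use the same 2 GV arrays, so they are not independent of each other. Of the 65 genes 21 were higher in both, 15 were lower in both and 21 were called in neither.

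The rises depended on how the arrays were put on a common scale, and the falls did so less. Without normalization 0 genes were higher and 12 lower in vivo, and 0 were higher and 22 lower in vitro, while the median of all genes moved to -0.98 and -1.95. With each array scaled to a common median, 7 were higher and 14 lower in vivo and 8 were higher and 18 lower in vitro, with all-gene medians of -0.21 and -0.54. Both of these scalings moved the median of all genes down, so falls kept a call more easily than rises there. These counts cannot show that falls are sturdier than rises. A rise below is a rise after quantile normalization, that is in rank among the probe sets of the same array, and need not be one in deposited intensity. Without the 4 dim arrays the counts were 31 higher and 18 lower in vivo, and 24 higher and 14 lower in vitro, where 1 adult in vitro array is left and assumed to vary like the other groups. The in vivo calls gained then included Prpf8 (-2.32), Prpf19 (-0.91), Prpf18 (1.00), Srsf5 (1.30) and Sf3b1 (0.62), and the in vitro calls of Sf3b2, Hnrnpd and Hnrnpll were lost (adjusted p = 0.109, 0.0747 and 0.0839). Under every scaling, filter and left-out array that was run, and in which the gene was tested, 8 falls in vivo remained called: Snrpc, Lsm3, Lsm10, Sf3a2, Sf3b3, Prpf3, Prpf38a and Srsf1. This holds for the chosen probe sets. The other tested sets of Sf3a2 (0.25) and Prpf38a (0.57 and 1.13) were not called in vivo, and 2 of 4 others of Srsf1 were called lower. Snrpc, Lsm3, Lsm10, Sf3b3 and Prpf3 had no other tested probe set. With arrays scaled to a common median, the rises that remained called were Snrpe, Snrpf, Snrpg, Lsm1, Hnrnpa2b1, Hnrnpdl and Hnrnpf in vivo and Snrpd3, Snrpe, Snrpf, Snrpg, Hnrnpa2b1, Hnrnpdl and Hnrnpr in vitro. Of the 24 rises in vivo, 13 remained called whichever single array was left out, and 0 did without normalization.

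**Figure D1:**
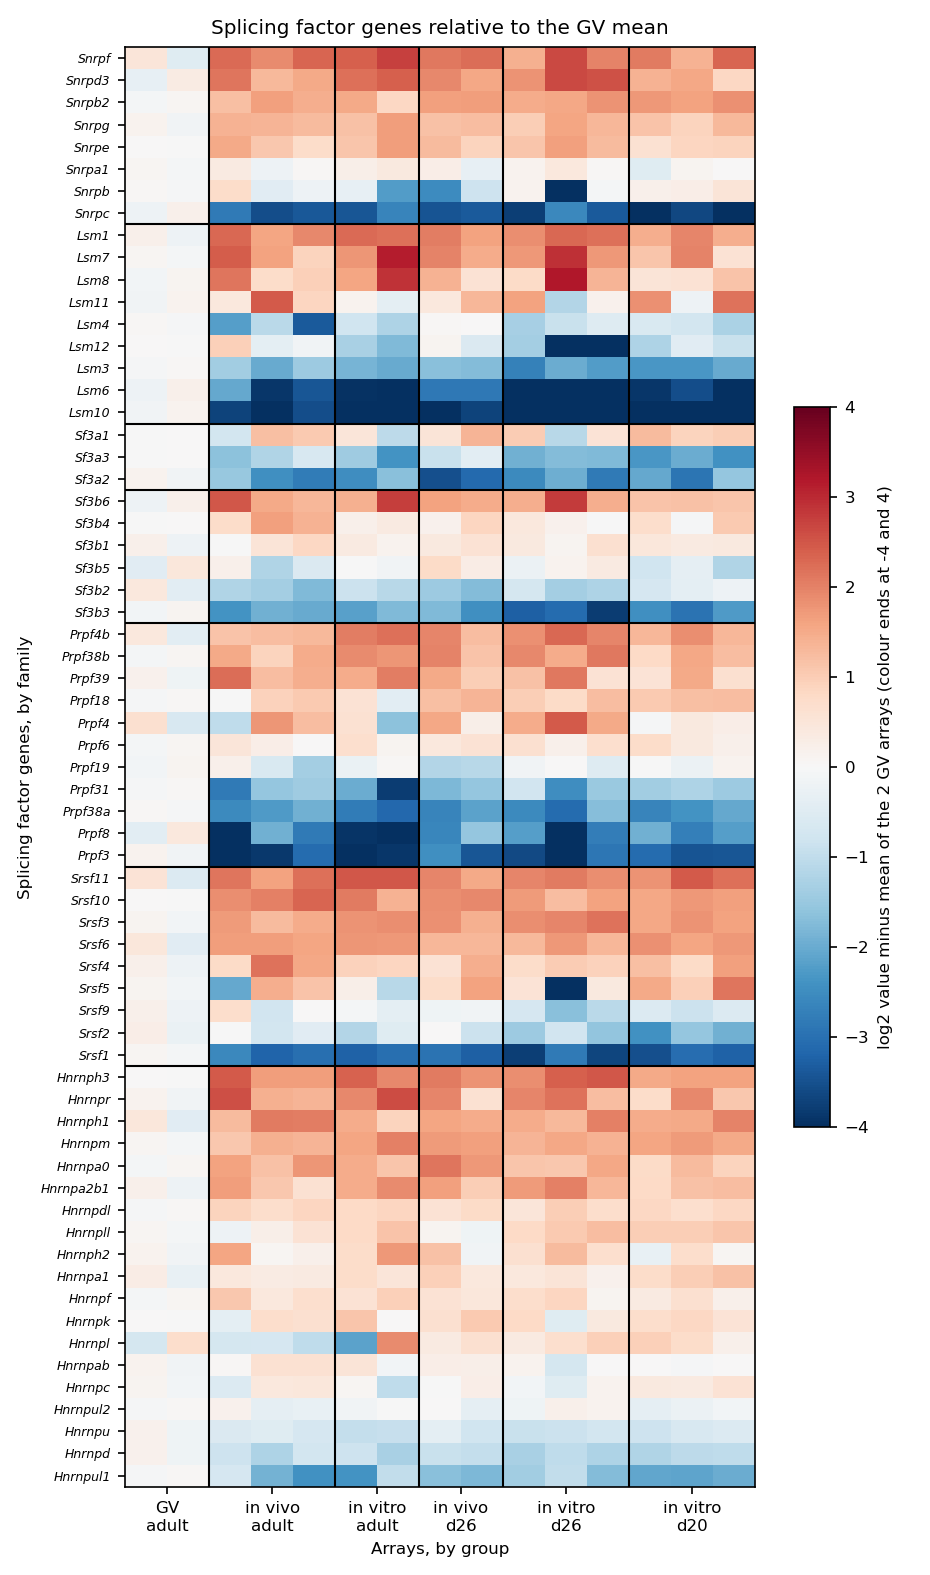
Log2 value of each of the 65 tested genes on each of the 15 arrays, minus the mean of the 2 GV arrays, with columns grouped by oocyte type and rows by gene family. Colour runs from -4 (blue) to 4 (red) and values beyond are drawn at the ends. Families hold red and blue rows side by side, and the MII columns of a row mostly share a colour. Without normalization 0 genes were called higher at MII and 8 of the 24 rises in vivo and 19 of the 24 in vitro turned sign, while 7 and 8 genes were called higher under median scaling.

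**Figure D2:**
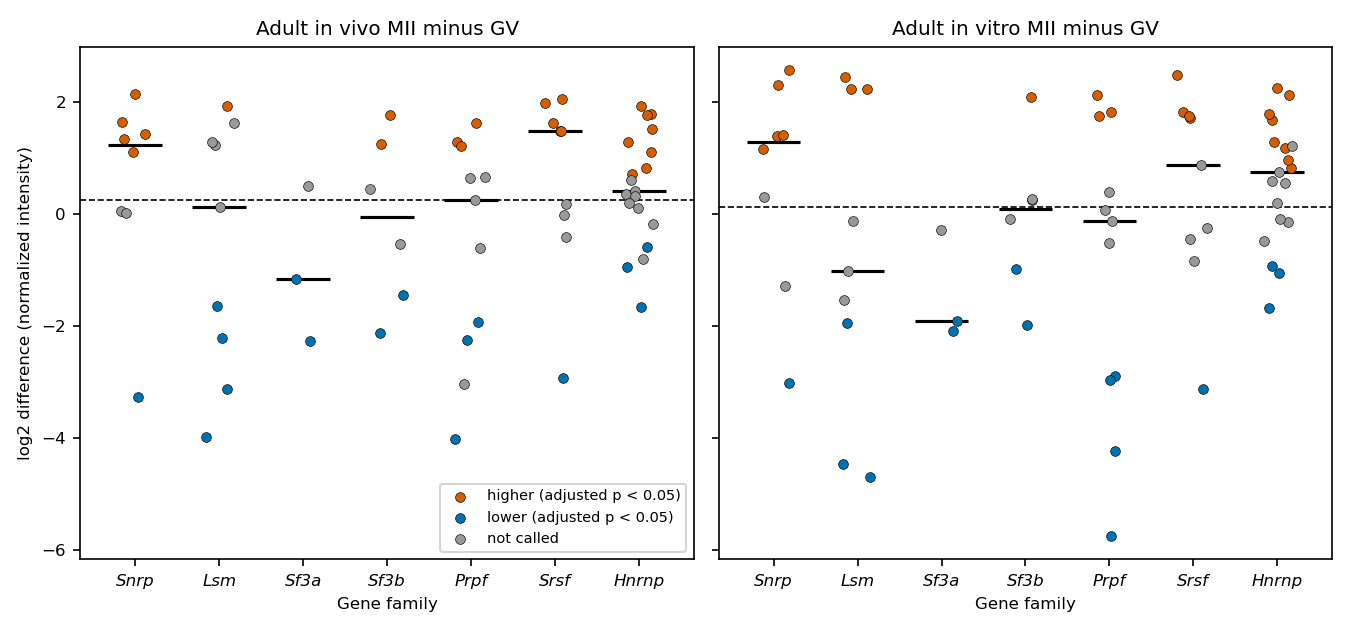
Log2 difference from adult GV oocytes of each tested gene (point) by family, for adult in vivo matured oocytes on the left and adult in vitro matured oocytes on the right. Bars are family medians and the dashed line is the median of all genes tested (0.26 and 0.13). Snrp and Srsf medians lie above that line and Sf3a medians below it in both panels, while 0 genes were called higher without normalization.

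The Snrp genes encode the Sm proteins of the snRNP core and a few proteins particular to 1 snRNP. Of 8 tested, 5 rose and 1 fell in both comparisons. The risers were the Sm ring members Snrpd3, Snrpe, Snrpf and Snrpg and the U2 protein Snrpb2, by 1.12 to 2.16 in vivo and by 1.17 to 2.57 in vitro on the log2 scale. The gene that fell was Snrpc, which encodes the U1 protein C that helps U1 to recognise the 5' splice site. The family median was 1.23 in vivo and 1.29 in vitro, and it stayed above the all-gene median under median scaling (0.90 and 0.94) and without normalization (0.12 and -0.47, where the in vitro sign turned).

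Promoters of this family are shown because 3 of the 5 risers and the gene that fell hold the same motif. Of the 69 genes, 60 matched a promoter in RefSeq's table for GRCm38.p6, which spans 250 bases before to 50 after the gene start. The motif CCGGAAG on either strand, the core bound by ETS family factors, was found in 18 of the 60 (30%) and in 9.12% of all 27025 promoters of that length. It was found in 8 of 22 genes that were higher in vivo, 6 of 15 that were lower and 4 of 19 that were neither. GGGCGG, the GC box, was in 68.3% of the genes and 35.9% of all promoters, and TATAAA in 8.33% and 14.2%, both searched on both strands, and none of the 3 motifs contains another. In the Snrp family CCGGAAG was in 4 of 8 promoters, those of the risers Snrpb2, Snrpe and Snrpg and of Snrpc. It was also in 3 of 3 Sf3a, 3 of 4 Sf3b, 3 of 11 Prpf, 3 of 10 Srsf, 2 of 17 Hnrnp and 0 of 7 Lsm promoters. The 4 Snrp promoters are printed 5′ to 3′ on the gene's strand, with the motif or its reverse complement CTTCCGG in capitals, from chr2:143062819-143063118 (plus strand), chr1:133610231-133610530 (minus), chr6:86371290-86371589 (plus) and chr17:27839837-27840136 (plus).
Snrpb2: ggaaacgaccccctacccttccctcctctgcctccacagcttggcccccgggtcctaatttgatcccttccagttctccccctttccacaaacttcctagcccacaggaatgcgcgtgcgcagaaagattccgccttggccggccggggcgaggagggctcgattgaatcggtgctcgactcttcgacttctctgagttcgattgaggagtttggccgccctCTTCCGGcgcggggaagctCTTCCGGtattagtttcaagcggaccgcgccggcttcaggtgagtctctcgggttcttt
Snrpe: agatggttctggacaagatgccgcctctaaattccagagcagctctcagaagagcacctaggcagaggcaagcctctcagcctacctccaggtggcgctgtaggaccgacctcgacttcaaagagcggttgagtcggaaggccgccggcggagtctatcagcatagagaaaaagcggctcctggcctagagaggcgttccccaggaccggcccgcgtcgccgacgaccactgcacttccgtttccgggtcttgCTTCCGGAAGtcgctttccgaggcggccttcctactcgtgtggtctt
Snrpg: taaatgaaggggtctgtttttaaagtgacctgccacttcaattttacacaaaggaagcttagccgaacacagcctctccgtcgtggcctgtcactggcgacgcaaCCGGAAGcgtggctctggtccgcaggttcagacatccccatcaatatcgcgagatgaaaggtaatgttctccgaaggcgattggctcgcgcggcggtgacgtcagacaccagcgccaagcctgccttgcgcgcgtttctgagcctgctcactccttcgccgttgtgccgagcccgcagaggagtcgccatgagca
Snrpc: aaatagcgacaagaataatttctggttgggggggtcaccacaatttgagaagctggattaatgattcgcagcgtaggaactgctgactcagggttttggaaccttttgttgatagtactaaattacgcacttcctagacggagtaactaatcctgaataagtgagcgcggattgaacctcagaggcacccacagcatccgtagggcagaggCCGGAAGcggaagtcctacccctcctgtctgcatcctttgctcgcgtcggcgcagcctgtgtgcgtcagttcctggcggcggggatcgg
In Snrpe the motif and its reverse complement overlap at the first bases of the transcript. In Snrpb2 the reverse complement occurs 2 times within the last 28 bases before the gene start, in Snrpg the motif begins 145 bases before the start, and in Snrpc 39 bases before it. A match is a description of the letters and not a mapped binding site.

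Snrpe encodes Sm protein E. Its value was 11.72 and 11.69 in the GV arrays, 13.22, 12.79 and 12.45 after adult maturation in vivo and 12.82 and 13.39 in vitro. It was 12.96 and 12.61 in d26 in vivo, 12.80, 13.34 and 12.95 in d26 in vitro and 12.32, 12.57 and 12.60 in d20 in vitro oocytes. All 13 MII arrays lay above both GV arrays, and the d20 arrays held 3 of the 4 lowest MII values. The differences from GV were 1.12, SE 0.25, adjusted p = 0.00361 in vivo and 1.40, SE 0.27, adjusted p = 0.0014 in vitro.

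Snrpf encodes Sm protein F and showed the largest rise of the family. It measured 8.18 and 7.20 in GV oocytes, 9.96, 9.58 and 10.01 in adult in vivo and 10.10 and 10.43 in adult in vitro MII oocytes. The d26 arrays gave 9.81 and 9.92 in vivo and 9.12, 10.33 and 9.68 in vitro, and the d20 arrays 9.76, 9.07 and 10.02. Although the GV arrays differed from each other by more than those of Snrpe, no MII array reached down to them. The log2 differences were 2.16, SE 0.39, adjusted p = 0.000828 and 2.57, SE 0.43, adjusted p = 0.000473.

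Snrpc showed the fall of this family. It was 9.51 and 9.95 in GV oocytes and 6.89, 6.17 and 6.33 in adult in vivo and 6.32 and 7.10 in adult in vitro MII oocytes. Values of 6.27 and 6.37 in d26 in vivo, 5.97, 7.16 and 6.36 in d26 in vitro and 5.54, 6.10 and 5.37 in d20 in vitro oocytes followed. Every MII array was below both GV arrays, and the d20 arrays held 3 of the 4 lowest values. The fall was 9.61-fold in vivo (-3.26, SE 0.44, adjusted p = 0.00011) and 8.09-fold in vitro (-3.02, SE 0.49, adjusted p = 0.000387).

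The other risers were Snrpg (1.35 in vivo, 1.42 in vitro), Snrpb2 (1.44, 1.17) and Snrpd3 (1.65, 2.30). Snrpg was 10.52 and 10.78 in GV oocytes and 11.56 to 12.32 over the MII arrays. Snrpa1, which encodes the U2 protein A', had differences of 0.06 and 0.31 that did not pass, and its MII arrays lay on both sides of the GV arrays. Snrpb, the gene of Sm proteins B and B', was at 6.30 and 6.21 in GV oocytes and between 2.20 and 7.00 at MII, with no call. Snrpd3 did not pass in vivo without GV replicate 1 (adjusted p = 0.055), and Snrpb2 did not pass in vitro without adult in vitro replicate 1 (0.0639). Without normalization the in vitro differences of Snrpb2 and Snrpd3 were -1.18 and -0.0018.

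The Lsm genes form related rings. Lsm2 to Lsm8 make the nuclear ring that binds U6 RNA, Lsm1 replaces Lsm8 in a cytoplasmic ring that promotes the decay of messenger RNA, and Lsm10 and Lsm11 belong to the U7 snRNP, which processes the 3' ends of histone transcripts. Of 9 tested, 1 rose and 4 fell in vivo, and 3 rose and 3 fell in vitro. Lsm1 rose in both, and Lsm3, Lsm6 and Lsm10 fell in both. The family median was 0.14 in vivo and -1.01 in vitro, and the first turned negative under median scaling (-1.09) and without normalization (-1.86). It was also negative without the dim arrays (-0.30) and with array weights (-0.13).

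Lsm1 stood at 7.90 and 7.50 in GV oocytes, 10.01, 9.28 and 9.64 in adult in vivo and 9.95 and 9.92 in adult in vitro MII oocytes. It stood at 9.76 and 9.32 in d26 in vivo, 9.56, 9.998 and 9.90 in d26 in vitro and 9.15, 9.67 and 9.16 in d20 oocytes. No MII array came within 1 unit of the GV arrays. The rise was 1.94, SE 0.30, adjusted p = 0.000257 in vivo and 2.23, SE 0.33, adjusted p = 0.000203 in vitro, and the in vitro difference was -0.28 without normalization.

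Lsm7 and Lsm8, both members of the U6 ring, had positive differences of different certainty. Lsm7 was 5.28 and 5.14 in GV oocytes, 7.63, 6.81 and 6.10 in adult in vivo and 6.98 and 8.35 in adult in vitro oocytes. The younger groups gave 7.19 and 6.68 for d26 in vivo, 6.94, 8.14 and 6.95 for d26 in vitro and 6.33, 7.18 and 5.78 for d20. All MII arrays exceeded the GV arrays, and the 3 highest values came from dim arrays. The in vivo difference of 1.64 had an adjusted p of 0.05003 and just missed the threshold, and the in vitro rise was 2.46, SE 0.64, adjusted p = 0.0093. Without the dim arrays they were 1.37 (adjusted p = 0.0402) and 1.93 (0.0241). Lsm8 differed by 1.29 in vivo without a call and rose by 2.24, SE 0.71, adjusted p = 0.0276 in vitro. The in vitro calls were lost without GV replicate 2 or adult in vitro replicate 2 for Lsm7 (adjusted p = 0.0634 and 0.112), and for Lsm8 without these (0.0982 and 0.222) or GV replicate 1 (0.128). Without normalization the in vitro values were -0.34 and -0.69.

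Lsm3 carries the highest mean of the family on this array. It was 11.04 and 11.15 in GV oocytes, 9.70, 9.07 and 9.63 in adult in vivo and 9.24 and 9.08 in adult in vitro oocytes. It was 9.44 and 9.35 in d26 in vivo, 8.40, 9.13 and 8.85 in d26 in vitro and 8.78, 8.77 and 9.09 in d20 oocytes. The GV arrays lay above all MII arrays. The difference was -1.63, SE 0.29, adjusted p = 0.000675 in vivo and -1.94, SE 0.31, adjusted p = 0.000394 in vitro, so after quantile normalization genes of the same U6 ring were called in opposite directions in vitro.

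Lsm10 fell from 8.61 and 8.91 in GV oocytes to 5.06, 4.09 and 5.21 in adult in vivo and 4.21 and 4.39 in adult in vitro oocytes. It was 2.36 and 5.05 in d26 in vivo, 4.19, 3.90 and 3.09 in d26 in vitro and 3.18, 1.89 and 1.62 in d20 oocytes. The 2 lowest d20 arrays and 1 d26 in vivo array were under the filter level of 3.07, where the sizes are imprecise. The difference was -3.97, SE 0.78, adjusted p = 0.00148 in vivo and -4.47, SE 0.85, adjusted p = 0.00122 in vitro. Its U7 partner Lsm11 measured 4.91 and 5.22 in GV oocytes and 3.90 to 7.53 over the MII arrays, with differences of 1.25 and -0.12 that did not pass.

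Lsm6, another U6 ring member, was 8.81 and 9.23 in GV oocytes, 6.97, 5.13 and 5.61 in adult in vivo and 5.05 and 3.58 in adult in vitro oocytes. The d26 in vivo arrays gave 6.17 and 6.16, the d26 in vitro arrays 3.50, 4.60 and 1.72 and the d20 arrays 5.12, 5.46 and 4.74. All MII values were below the GV values, and the in vivo matured groups lay above the in vitro matured group of the same age. The difference from GV was -3.12, SE 0.76, adjusted p = 0.00646 in vivo, a call lost without GV replicate 2 (adjusted p = 0.066), and -4.70, SE 0.83, adjusted p = 0.000736 in vitro. A second Lsm6 probe set also fell in both comparisons (-3.64 and -3.82), and the other 2 tested were not called (-2.94 and 0.12 in vivo, -2.78 and -1.19 in vitro). Lsm4 fell by 2.21 in vivo, which was lost without either GV array (adjusted p = 0.0682 and 0.0624), and differed by -1.01 in vitro without a call. Lsm12 had no call, with 0.14 and -1.54.

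SF3A and SF3B are subunit complexes of the U2 snRNP. Of the 3 Sf3a genes 2 fell and 0 rose in both comparisons. Sf3a3 measured 10.18 and 10.23 in GV, 8.58, 9.02 and 9.56 in adult in vivo and 8.78 and 7.83 in adult in vitro oocytes. It measured 9.31 and 9.78 in d26 in vivo, 8.29, 8.46 and 8.45 in d26 in vitro and 7.88, 8.21 and 7.77 in d20 oocytes. No MII array reached the GV level. The difference was -1.90, SE 0.38, adjusted p = 0.00174 in vitro and -1.15, SE 0.35, adjusted p = 0.0228 in vivo. The in vivo call was lost without adult in vivo replicate 1 (adjusted p = 0.0708), without either GV array (0.108 and 0.135) and under median scaling. The other tested Sf3a3 probe set was not called (0.29 in vivo and -0.66 in vitro).

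Sf3a2 was 10.75 and 10.46 in GV oocytes, 9.09, 8.14 and 7.80 in adult in vivo and 8.12 and 8.94 in adult in vitro oocytes, and 7.10 and 7.49 in d26 in vivo, 8.05, 8.66 and 7.79 in d26 in vitro and 8.56, 7.68 and 9.07 in d20 oocytes. The d26 in vivo arrays were the lowest of the 15. The difference was -2.26, SE 0.46, adjusted p = 0.00208 in vivo and -2.08, SE 0.51, adjusted p = 0.00658 in vitro, and the in vitro call was lost without adult in vitro replicate 1 or GV replicate 1 (adjusted p = 0.0624 and 0.0564). The other tested Sf3a2 probe set was not called (0.25 in vivo and -0.40 in vitro). Sf3a1 gave no call with its chosen probe set (0.50 and -0.28), and its other 2 tested probe sets went opposite ways. The first rose by 1.78 in vivo and 2.14 in vitro and the other fell (-3.33 and -4.01), so no direction is given for this gene.

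Among the 6 Sf3b genes, 2 rose and 2 fell in vivo, and 1 rose and 2 fell in vitro. Sf3b6 encodes the small subunit that touches the branch point adenosine. It was 6.86 and 7.23 in GV oocytes, 9.52, 8.55 and 8.37 in adult in vivo and 8.47 and 9.82 in adult in vitro oocytes. In the younger groups it was 8.64 and 8.54 for d26 in vivo, 8.51, 9.84 and 8.51 for d26 in vitro and 8.17, 8.22 and 8.15 for d20. The 3 highest arrays were dim ones, and the d20 arrays were the lowest of the MII arrays, still above GV. Without the dim arrays the differences were 1.40 (adjusted p = 0.00134) and 1.41 (0.00522). With all arrays the rise was 1.77, SE 0.48, adjusted p = 0.0125 in vivo and 2.10, SE 0.52, adjusted p = 0.00745 in vitro. It was lost in vivo without GV replicate 1 or 2 (adjusted p = 0.108 and 0.0524) and in vitro without GV replicate 1 or adult in vitro replicate 2 (0.0625 and 0.108), and the sign turned without normalization (-0.06 and -0.63).

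Sf3b3, which encodes a large scaffold subunit, was 8.32 and 8.54 in GV oocytes, 6.03, 6.50 and 6.41 in adult in vivo and 6.24 and 6.66 in adult in vitro oocytes. It was 6.67 and 5.98 in d26 in vivo, 5.18, 5.37 and 4.63 in d26 in vitro and 5.97, 5.47 and 6.17 in d20 oocytes. GV arrays exceeded every MII array, with a difference of -2.12, SE 0.42, adjusted p = 0.00151 in vivo and -1.98, SE 0.45, adjusted p = 0.00436 in vitro. Sf3b1, the subunit that grips the branch point, was 11.90 and 11.50 in GV oocytes, 11.69, 12.23 and 12.51 in adult in vivo, 12.06 and 11.84 in adult in vitro, 12.09 and 12.28 in d26 in vivo, 12.09, 11.82 and 12.32 in d26 in vitro and 12.16, 12.07 and 12.09 in d20 oocytes. Its MII arrays overlapped with the GV arrays and it was not called (0.45 and 0.25). However, 2 other Sf3b1 probe sets rose, by 2.30 and 1.55 in vivo and by 1.85 and 1.87 in vitro. Sf3b2 fell in both comparisons (-1.44 in vivo and -0.98 in vitro) with its chosen probe set, and 0 of its 5 other tested probe sets were called (-0.90 to 0.48 in vivo, -1.74 to 1.10 in vitro). Its in vivo call was lost without GV replicate 1 (adjusted p = 0.0918), and its in vitro call held in 5 of the 15 fits that left out an array. Sf3b4 rose by 1.26 in vivo, which was lost without either GV array (0.104 and 0.0971) or without adult in vivo replicate 2 or 3 (0.0639 and 0.0536), turned to -0.13 without normalization, and was 0.28 in vitro without a call. Sf3b5 had no call (-0.53 and -0.08).

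The Prpf genes are named after yeast mutants in the processing of precursor RNA and take part in many steps. Of 11 tested, 3 rose and 3 fell in vivo, and 3 rose and 4 fell in vitro. The falls included Prpf3, Prpf31 and, in vitro, Prpf8, which belong to the tri-snRNP, the particle that brings U4, U6 and U5 to the intron, and the rises were Prpf4b, a kinase that acts on splicing factors, Prpf39, a U1-associated protein, and Prpf38b. The family median was 0.25 in vivo and -0.11 in vitro, and the first turned negative under median scaling (-0.32) and without normalization (-1.10). The second turned positive without the dim arrays (0.58), where 1 adult in vitro array is left.

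Prpf3 encodes a protein bound to the paired U4 and U6 RNAs. It was 8.52 and 8.25 in GV oocytes, 3.32, 4.52 and 5.30 in adult in vivo and 3.82 and 4.48 in adult in vitro oocytes. It was 5.92 and 4.96 in d26 in vivo, 4.76, 4.18 and 5.50 in d26 in vitro and 5.32, 4.94 and 4.97 in d20 oocytes. The lowest GV value exceeded the highest MII value by over 2 units. The fall was 16.1-fold in vivo (-4.01, SE 0.61, adjusted p = 0.000245) and 18.8-fold in vitro (-4.23, SE 0.67, adjusted p = 0.000336).

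Prpf8 is the scaffold at the catalytic centre of the spliceosome. Its values were 9.07 and 9.93 in GV oocytes, 5.16, 7.56 and 6.68 in adult in vivo, and 5.57 and 1.94 in adult in vitro oocytes. The d26 in vivo arrays read 6.90 and 7.94, the d26 in vitro arrays 7.29, 1.86 and 6.72 and the d20 arrays 7.57, 6.78 and 7.31. The 3 lowest values were from dim arrays (adult in vitro replicate 2, d26 in vitro replicate 2 and adult in vivo replicate 1). Prpf8 differed by -3.03, SE 1.32, adjusted p = 0.11 in vivo without a call and fell in vitro (-5.74, SE 1.45, adjusted p = 0.00775), a call that was lost without GV replicate 2 or adult in vitro replicate 2 (adjusted p = 0.0614 and 0.117). Without the dim arrays Prpf8 was lower in both, by a smaller amount (-2.32, adjusted p = 0.00218, and -3.97, adjusted p = 0.00045).

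Prpf31, which bridges U4 and U6 to U5, fell in both comparisons (-1.92 in vivo and -2.88 in vitro), while its other tested probe set was not called (-0.46 and -1.45). The in vivo call was lost without adult in vivo replicate 1 or either GV array (adjusted p from 0.0948 to 0.149), and the in vitro call without adult in vitro replicate 2 (0.0714). Prpf38a, a factor of the activating spliceosome, fell in both (-2.25 and -2.96), while Prpf38b, its relative, rose by 1.29 and 1.83 (-0.11 and -0.46 without normalization). The other 2 tested probe sets of Prpf38a were not called and had the opposite sign (0.57 and 1.13 in vivo, 0.96 and 1.81 in vitro). With its chosen probe set Prpf38a was 9.60 and 9.71 in GV oocytes and 6.51 to 7.95 over the MII arrays, and Prpf38b was 8.33 and 8.50 against 9.22 to 10.52. The Prpf38b call in vivo was lost without GV replicate 1 (0.0716), and another of its probe sets was not called in either comparison (-0.41 and 0.21).

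Prpf39 was 6.18 and 5.83 in GV oocytes, 8.24, 7.25 and 7.45 in adult in vivo and 7.48 and 8.07 in adult in vitro oocytes. It was 7.51 and 7.00 in d26 in vivo, 7.18, 8.12 and 6.59 in d26 in vitro and 6.56, 7.52 and 6.66 in d20 oocytes. All MII arrays were above the GV arrays, with the dim ones the highest except in d26 in vitro replicate 3. The rise was 1.64, SE 0.49, adjusted p = 0.0212 in vivo and 1.77, SE 0.54, adjusted p = 0.0226 in vitro. It was lost without either GV array or the dim array of the group compared, with adjusted p-values of 0.0629 to 0.16 in vivo and 0.067 to 0.143 in vitro, and kept without all 4 dim arrays (1.41, adjusted p = 0.0135, and 1.54, adjusted p = 0.0263). Prpf4b gave 7.87 and 7.01 in GV, 8.59, 8.67 and 8.73 in adult in vivo, 9.50 and 9.65 in adult in vitro, 9.40 and 8.67 in d26 in vivo, 9.25, 9.73 and 9.39 in d26 in vitro and 8.77, 9.29 and 8.77 in d20 oocytes. The adult in vitro arrays were higher than every adult in vivo array. Prpf4b rose by 1.22, SE 0.33, adjusted p = 0.0122 in vivo, which was lost without GV replicate 2 (adjusted p = 0.221), and by 2.14, SE 0.36, adjusted p = 0.000557 in vitro. Of its 4 other tested probe sets 0 were called in vivo (-0.96 to 0.97) and 1 rose in vitro (2.52). Without normalization all 3 Prpf rises turned sign, to -0.11, -0.32 and -0.54 in vivo for Prpf38b, Prpf39 and Prpf4b and to -0.46, -1.18 and -0.48 in vitro.

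Prpf6, a tri-snRNP bridge protein, was 11.34 and 11.49 in GV oocytes, 11.89, 11.69 and 11.44 in adult in vivo, 12.10 and 11.53 in adult in vitro, 11.83 and 11.99 in d26 in vivo, 12.07, 11.61 and 12.09 in d26 in vitro and 12.14, 11.82 and 11.63 in d20 oocytes. Adult in vivo replicate 3 lay between the GV arrays and the other 12 MII arrays lay above them, and its differences of 0.25 and 0.40 were not called. Prpf19, a ubiquitin ligase of the Prp19 complex, Prpf18, a factor of the second catalytic step, and Prpf4, a partner of Prpf3, were not called either. The in vivo differences of these 3 genes were -0.60, 0.65 and 0.66, and the in vitro ones -0.11, 0.08 and -0.51.

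The Srsf genes encode SR proteins, which bind exonic enhancers through RNA recognition motifs and recruit the splicing machinery through a domain rich in arginine and serine. Of 9 tested, 5 rose and 1 fell in vivo, and 4 rose and 1 fell in vitro. Srsf3, Srsf6, Srsf10 and Srsf11 rose in both and Srsf1 fell in both. The family median was 1.48 in vivo and 0.89 in vitro, and 0.67 and 0.38 under median scaling, but -0.10 and -1.03 without normalization.

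Srsf1, the SR protein first purified as an essential splicing factor, was 11.12 and 10.95 in GV oocytes, 8.47, 7.83 and 8.02 in adult in vivo and 7.82 and 8.03 in adult in vitro oocytes. The d26 in vivo arrays gave 8.09 and 7.78, the d26 in vitro arrays 7.26, 8.21 and 7.37 and the d20 arrays 7.51, 7.98 and 7.81. The 13 MII arrays lay between 7.26 and 8.47, over 2 units below GV. The fall was 7.61-fold in vivo (-2.93, SE 0.34, adjusted p = 3.77e-05) and 8.65-fold in vitro (-3.11, SE 0.38, adjusted p = 5.73e-05). Srsf1 has 5 tested probe sets, and they did not all move together. Another also fell (-3.43 in vivo and -3.64 in vitro), 1 fell in vivo (-1.93) and was not called in vitro (-1.67), and 1 was called in neither. The last was higher at MII, by 1.72 in vivo without a call and by 2.43 in vitro with an adjusted p of 0.0155. Which part of the transcript each probe set covers was not analysed here.

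Srsf10, which can act as a general splicing repressor, was 7.60 and 7.57 in GV oocytes, 9.44, 9.61 and 9.92 in adult in vivo and 9.65 and 8.97 in adult in vitro oocytes. It was 9.44 and 9.50 in d26 in vivo, 9.29, 8.83 and 9.19 in d26 in vitro and 9.14, 9.33 and 9.24 in d20 oocytes. No MII array was within 1 unit of GV, and the rise was 2.07, SE 0.28, adjusted p = 0.000109 in vivo and 1.72, SE 0.31, adjusted p = 0.000774 in vitro. Srsf11, an SR-related protein, gave 7.34 and 6.27 in GV, 8.94, 8.42 and 9.01 in adult in vivo, 9.30 and 9.30 in adult in vitro, 8.77 and 8.33 in d26 in vivo, 8.75, 8.87 and 8.65 in d26 in vitro and 8.60, 9.26 and 8.99 in d20 oocytes. The GV arrays were further apart than any pair of MII arrays, and all MII arrays were higher. Srsf11 rose by 1.99, SE 0.35, adjusted p = 0.000705 in vivo and 2.50, SE 0.38, adjusted p = 0.000285 in vitro, and without normalization both genes had negative in vitro differences (-0.95 for Srsf10 and -0.29 for Srsf11).

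Srsf3, also an adaptor for messenger RNA export, was 8.25 and 8.50 in GV oocytes and 9.64 to 10.53 over the MII arrays. It rose by 1.48 in vivo and 1.84 in vitro, and Srsf6 by 1.63 and 1.75. Without normalization Srsf6 was -0.10 in vivo, and Srsf3 and Srsf6 were -0.48 and -0.93 in vitro. Srsf4 was 9.85 and 9.47 in GV, 10.42, 11.84 and 11.20 in adult in vivo, 10.57 and 10.53 in adult in vitro, 10.25 and 11.13 in d26 in vivo, 10.40, 10.68 and 10.57 in d26 in vitro and 10.86, 10.42 and 11.31 in d20 oocytes. Adult in vivo replicate 2 was the highest of the 15, and all MII arrays were above GV. Srsf4 rose by 1.49, SE 0.38, adjusted p = 0.00834 in vivo, which was lost without GV replicate 2 (adjusted p = 0.0993), and differed by 0.89 in vitro without a call. Srsf2, Srsf5 and Srsf9 were not called, with -0.40, 0.18 and -0.02 in vivo and -0.83, -0.44 and -0.24 in vitro. The Srsf5 values spread from 1.70 to 9.07 over the MII arrays, with the 3 lowest in dim arrays.

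**Figure D3:**
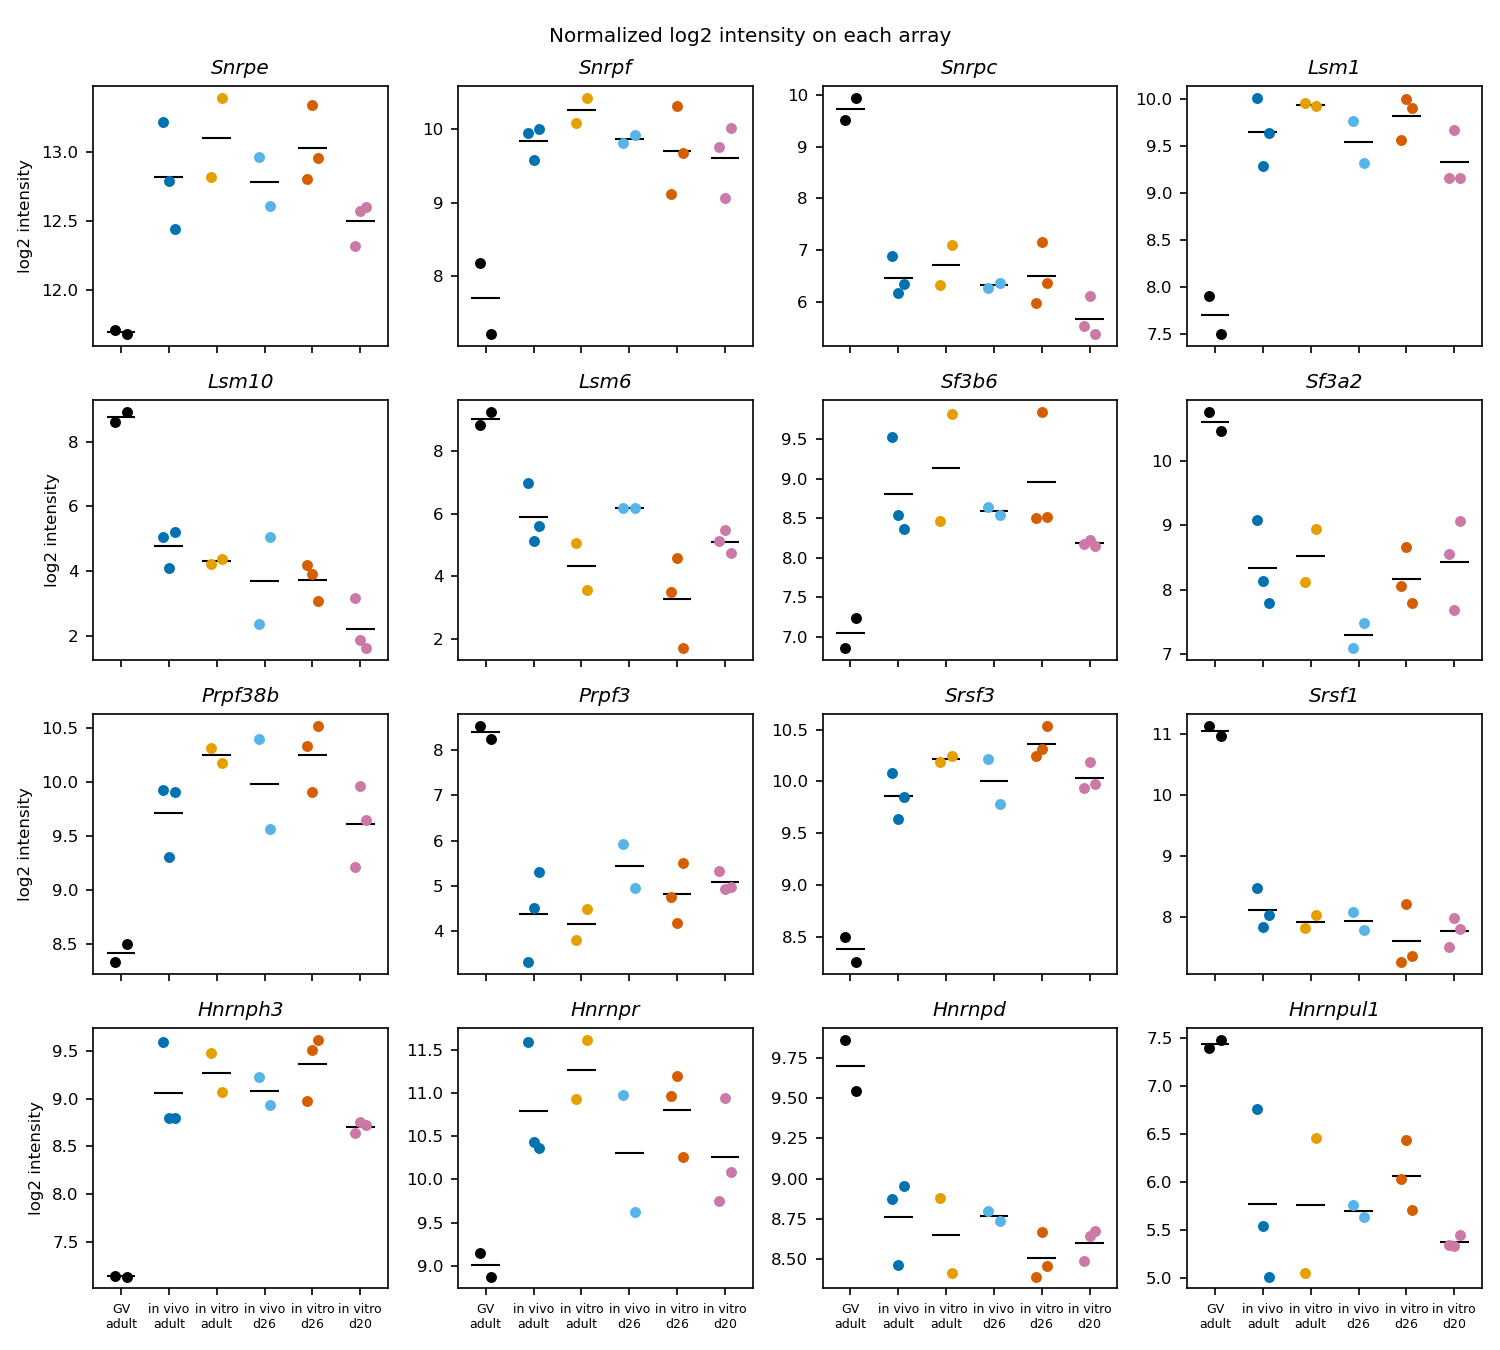
Normalized log2 intensity of 16 splicing factor genes on each array (points), by group, with the group mean as a bar. Axes differ between panels and do not start at 0. In Snrpc, Lsm10, Prpf3 and Srsf1 both GV points lie above all 13 MII points, and in Snrpe, Lsm1, Prpf38b and Hnrnph3 below them. The rises of Prpf38b in both comparisons and of Lsm1 and Hnrnph3 in vitro turned sign without normalization.

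The Hnrnp genes encode abundant nuclear RNA-binding proteins that coat newly made RNA and often repress splice sites. Of 19 tested, 8 rose and 3 fell in each comparison. Hnrnpa0, Hnrnpa2b1, Hnrnpdl, Hnrnph1, Hnrnph3, Hnrnpm and Hnrnpr rose in both, while Hnrnpf was called in vivo and Hnrnpll in vitro. Hnrnpd, Hnrnpu and Hnrnpul1 fell in both. The family median was 0.41 in vivo and 0.75 in vitro, and 0.25 and 0.18 under median scaling, but -0.52 and -1.23 without normalization.

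Hnrnph3 belongs to the group that binds runs of G. It was 7.14 and 7.13 in GV oocytes, 9.59, 8.80 and 8.80 in adult in vivo and 9.48 and 9.07 in adult in vitro oocytes. It was 9.23 and 8.93 in d26 in vivo, 8.98, 9.51 and 9.61 in d26 in vitro and 8.64, 8.75 and 8.73 in d20 oocytes. The GV arrays were nearly equal and every MII array was over 1 unit higher. The rise was 1.93, SE 0.32, adjusted p = 0.000424 in vivo and 2.14, SE 0.35, adjusted p = 0.000403 in vitro, the latter -0.63 without normalization. Its relative Hnrnph1 rose by 1.80 and 1.19, and Hnrnph2 was not called (0.62 and 1.23). The Hnrnph1 call in vitro was lost without adult in vitro replicate 1 or GV replicate 2 (adjusted p = 0.193 and 0.331), and its in vitro difference was -1.25 without normalization.

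Hnrnpr was 9.14 and 8.88 in GV oocytes, 11.58, 10.43 and 10.36 in adult in vivo and 10.93 and 11.61 in adult in vitro oocytes. The d26 in vivo arrays gave 10.98 and 9.62, the d26 in vitro arrays 10.97, 11.19 and 10.26 and the d20 arrays 9.75, 10.94 and 10.08. Groups of MII oocytes overlapped widely, and the lowest MII array still exceeded GV. The rise was 1.78, SE 0.48, adjusted p = 0.0117 in vivo and 2.26, SE 0.52, adjusted p = 0.00457 in vitro. It was lost in vivo without GV replicate 1 or 2 (adjusted p = 0.0514 and 0.0997) and in vitro without adult in vitro replicate 2 (0.0542). A second Hnrnpr probe set rose by 1.70 and 2.17.

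Hnrnpm rose by 1.29 in vivo and 1.79 in vitro, Hnrnpa0 by 1.52 and 1.30, Hnrnpa2b1 by 1.12 and 1.69 and Hnrnpdl by 0.82 and 0.83. Hnrnpdl changed in the opposite direction to its paralogue Hnrnpd, which binds AU-rich elements of unstable messenger RNAs, except in vitro without normalization, where it was -0.24. Hnrnpd was 9.54 and 9.86 in GV oocytes and 8.39 to 8.95 over the MII arrays, a difference of -0.94, SE 0.28, adjusted p = 0.0195 in vivo and -1.05, SE 0.30, adjusted p = 0.0166 in vitro. Hnrnpdl was 11.60 and 11.67 in GV oocytes and 12.12 to 12.63 at MII, and 4 more of its probe sets rose in vivo. Hnrnpf rose by 0.73 in vivo and was 0.75 in vitro (adjusted p = 0.0542). Hnrnpll, a paralogue of Hnrnpl, rose by 0.97 in vitro and was 0.21 in vivo without a call. Its other tested probe set rose in both comparisons, by 2.06 in vivo and 3.12 in vitro. Whether in vivo and in vitro matured oocytes differ in it is given below.

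Several of these calls were fragile. In vivo Hnrnpa2b1 was lost without adult in vivo replicate 1 or GV replicate 2 (adjusted p = 0.0546 and 0.173), Hnrnpm without GV replicate 2 (0.0765), and Hnrnpd without adult in vivo replicate 2 or either GV array (0.067, 0.182 and 0.0605). Hnrnpf held in 7 of the 15 fits that left out an array in vivo, Hnrnpu in 5, and Hnrnpll in 4 in vitro. In vitro Hnrnpa0 was lost without adult in vitro replicate 1 or GV replicate 1 (0.0537 and 0.0524), Hnrnpd without GV replicate 1 or adult in vitro replicate 2 (0.137 and 0.138), and Hnrnpu without GV replicate 1 (0.0744). Without normalization Hnrnpa0 and Hnrnpm were -0.03 and -0.66 in vivo, and Hnrnpa0, Hnrnpdl, Hnrnpll and Hnrnpm were -1.24, -0.24, -1.74 and -1.16 in vitro. Hnrnpll was -0.33 in vitro under median scaling.

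Hnrnpul1, which is related to Hnrnpu and takes part in the response to DNA damage, was 7.39 and 7.47 in GV oocytes, 6.76, 5.54 and 5.02 in adult in vivo and 5.06 and 6.46 in adult in vitro oocytes. It was 5.76 and 5.64 in d26 in vivo, 6.04, 6.44 and 5.71 in d26 in vitro and 5.34, 5.33 and 5.45 in d20 oocytes. All MII arrays were below GV, and the adult groups spread widely. The difference was -1.66, SE 0.54, adjusted p = 0.0325 in vivo and -1.67, SE 0.59, adjusted p = 0.0465 in vitro. It was lost in vivo without either GV array or adult in vivo replicate 2 or 3 (adjusted p from 0.0799 to 0.163), and in vitro it held in 4 of the 15 fits that left out an array. Hnrnpu, a nuclear scaffold protein, fell in both (-0.58 and -0.93) with its chosen probe set, and its other 3 tested probe sets were not called.

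Hnrnpc, which binds runs of U in nascent RNA, was 12.52 and 12.27 in GV oocytes, 11.86, 12.83 and 12.84 in adult in vivo and 12.48 and 11.37 in adult in vitro oocytes. It was 12.39 and 12.65 in d26 in vivo, 12.28, 11.91 and 12.52 in d26 in vitro and 12.78, 12.76 and 12.96 in d20 oocytes. These values overlap, and its differences of 0.12 and -0.47 were not called. Its other tested probe set was called higher in vivo (1.82) and not in vitro (1.14). Hnrnpa1, Hnrnpab, Hnrnpk, Hnrnpl and Hnrnpul2 were not called in either comparison with their chosen probe sets, with differences from -0.80 to 0.41 in vivo and from -0.13 to 0.60 in vitro. For Hnrnpk 2 other probe sets were lower in vivo (-1.54 and -1.99) and 1 in vitro (-2.84). Of 5 other tested Hnrnpab probe sets 1 was higher in vitro (3.23) and 1 lower (-1.55), with no call in vivo, so no direction is given for this gene.

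Other probe sets of the called genes were compared with the chosen ones. Of the 24 genes higher in vivo, 17 had another tested probe set, and in 15 at least 1 of them was called higher too. Of the 16 lower genes 8 had another tested probe set, and in 2 at least 1 was called lower too. In vitro the counts were 14 of 16 for higher and 2 of 8 for lower genes, with 1 gene, Srsf1, called the opposite way by another probe set. Such a count needs only 1 agreeing probe set among several. In vivo 1 of 4 other tested sets was called higher for Srsf3, 1 of 3 for each of Srsf6, Srsf10 and Sf3b6, and 0 of 4 for Prpf4b. For Hnrnpa2b1 it was 2 of 3 and for Hnrnpdl 4 of 6. In vitro 0 of 2 were called for Snrpd3 (-0.43 and 1.10). Among the 69 chosen probe sets, 18 carry a suffix (11 s and 7 x) that marks probes shared with other transcripts, so signal from related genes or pseudogenes cannot be told apart there. Srsf1, Prpf6 and Hnrnpr are read by x sets, and Snrpe, Snrpg, Lsm6 and Sf3a2 by s sets.

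Set against all 13 MII arrays, both GV arrays lay below every MII array in 25 of the 65 genes and above every one in 15, and 25 overlapped. Over all genes tested those shares were 20.6% and 17%. Against the adult groups singly, 28 genes lay wholly above GV and 17 wholly below in vivo (34.3% and 24.2% of all genes), and 31 and 20 in vitro (38.1% and 30.6%). The 25 comprised 8 Hnrnp, 5 Snrp, 5 Srsf, 3 Lsm, 3 Prpf and 1 Sf3b genes. The 15 comprised 4 Prpf, 3 Lsm, 3 Hnrnp, 2 Sf3a and 1 each of the Snrp, Sf3b and Srsf genes.

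A ratio between genes on the same array is not changed by multiplying that array by a constant, as median scaling does, though it is by quantile normalization. Each gene's deposited log2 intensity was set against the median of the other tested genes of its family. The level of such a ratio reflects probe response, and only its difference between arrays is read. Srsf1 had a ratio of 2.56 and 2.66 in GV oocytes and -1.52 to -0.73 at MII. Snrpc went from 0.81 and 0.93 to between -5.12 and -3.71, and Prpf3 from 0.18 and 0.33 to between -3.50 and -2.03. Lsm1 went the other way, from 0.90 and 1.27 to between 2.89 and 4.56, while Lsm10 went from 1.82 and 1.91 to between -4.96 and -0.92. The ratio of Prpf38b went from 0.09 and 0.44 to between 1.84 and 3.92. These 6 genes were picked for their ratios, and no test was run on them. The ratios of Snrpb2, Snrpd3, Snrpe, Snrpf and Snrpg overlapped between GV and MII oocytes. Over the 65 tested splicing factor genes the GV ratios lay above every MII ratio in 15, below in 14 and overlapped in 36. Such ratios were not computed for other genes, so these counts have no share of all genes beside them. The family medians moved too. Without normalization they differed from GV by -1.86 in vivo and -3.67 in vitro for Lsm, and by -1.10 and -2.06 for Prpf. Prpf38b in both comparisons and Lsm1 in vitro then had negative differences themselves, so their higher ratios are not higher deposited intensities there.

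**Figure D4:**
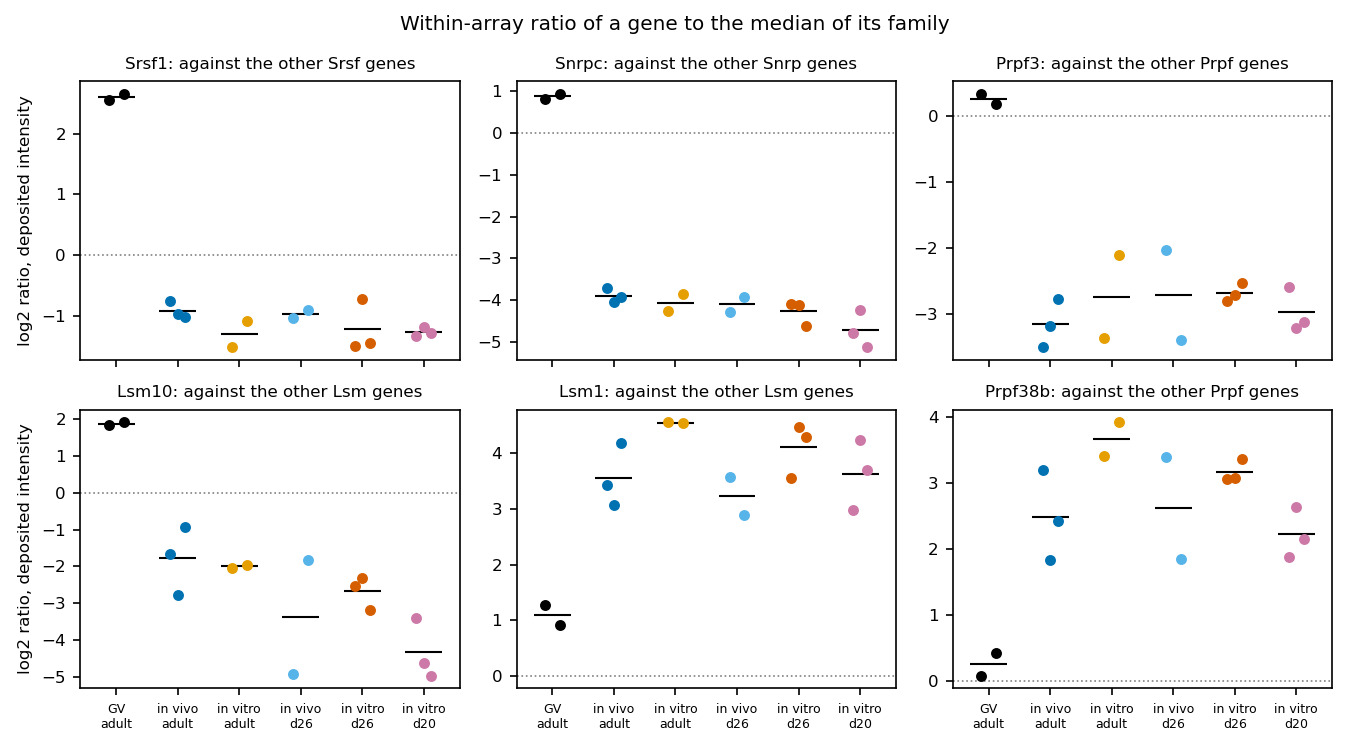
Log2 ratio of 6 genes to the median of the other tested genes of their family on the same array, from deposited intensities, by group (points are arrays, bars are group means). Axes differ between panels. Srsf1, Snrpc, Prpf3 and Lsm10 have GV points above all MII points, and Lsm1 and Prpf38b have GV points below them.

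The next question was whether maturation in vivo and in vitro gives different levels. In adults 0 of the 65 genes were called by limma, and 0% of all genes were, while 4 of the 65 had an unadjusted p below 0.05. The share of all genes with an unadjusted p below 0.05 was not computed, here or in the comparisons below. Counts of unadjusted p-values are therefore not read as a result about these genes. The 3 smallest p-values belonged to Prpf4b (in vivo minus in vitro -0.91, SE 0.33, adjusted p = 0.546), Sf3b4 (0.97, SE 0.36, adjusted p = 0.558) and Hnrnpll (-0.76, SE 0.31, adjusted p = 0.573). At d26 0 of 65 were called, against 0.0582% of all genes, and 7 had an unadjusted p below 0.05. The smallest p-values were those of Lsm6 (2.89, SE 0.76, adjusted p = 0.315), Lsm12 (3.64, SE 0.99, adjusted p = 0.339) and Hnrnpll (-1.06, SE 0.31, adjusted p = 0.403). Hnrnpll was 7.70 and 7.43 in d26 in vivo and 8.39, 8.67 and 8.83 in d26 in vitro oocytes. In adults it was 7.39, 7.86 and 8.19 in vivo and 8.40 and 8.75 in vitro, and at both ages no in vivo array reached the lowest in vitro one. Lsm12 was 5.79 and 5.10 in vivo and 4.33, -0.51 and 1.61 in vitro at d26, where the 2 lowest arrays were the dim ones and lay under the filter level.

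Averaged over both ages, the in vivo minus in vitro difference was called in 0 of 65 genes and in 0.249% of all genes, with 12 genes at an unadjusted p below 0.05. Lsm6 came first (2.24, SE 0.54, adjusted p = 0.12), then Hnrnpll (-0.91, SE 0.22, adjusted p = 0.121) and Sf3a3 (0.95, SE 0.25, adjusted p = 0.158). The test of whether this difference depends on age called 0 of 65 and 0% of all genes, with 2 at an unadjusted p below 0.05. The 3 smallest p-values were those of Lsm4 (d26 minus adult 2.14, SE 0.80, adjusted p = 1), Sf3b3 (1.41, SE 0.59, adjusted p = 1) and Hnrnpm (0.74, SE 0.45, adjusted p = 1).

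Lsm6 and Lsm12 crossed the threshold in some settings. For Lsm6 the d26 difference was 3.42 with array weights (adjusted p = 0.0336) and 2.89 without the dim arrays (0.0277), which leaves d26 in vitro replicate 1 as the only array of its group. For Lsm12 it was 4.91 without d26 in vitro replicate 1 (0.039), which leaves the 2 dim arrays in that group. The average over ages was called for Lsm6 with array weights (2.34, 0.037), without adult in vitro replicate 1 (2.63, 0.0415) and without d26 in vitro replicate 2 (2.61, 0.0423), and for Lsm12 without d26 in vitro replicate 1 (3.29, 0.0218). Prpf19 was called without adult in vivo replicate 1 (-0.89, 0.0401) and Sf3a3 without adult in vitro replicate 1 (1.18, 0.037).

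Age was compared among in vitro matured oocytes. Between d20 and adult 0 of 65 genes were called, against 0.0333% of all genes, and 11 had an unadjusted p below 0.05. As above, unadjusted counts have no share of all genes beside them. The smallest p-values were those of Snrpd3 (d20 minus adult -1.04, SE 0.35, adjusted p = 0.191), Srsf2 (-1.14, SE 0.41, adjusted p = 0.204) and Prpf18 (1.09, SE 0.39, adjusted p = 0.211). Snrpd3 was 9.55, 9.71 and 8.99 in d20, 9.95, 10.78 and 10.69 in d26 and 10.36 and 10.56 in adult in vitro oocytes, and the d20 arrays lay below all others of this set. Srsf2, an SR protein that binds both purine-rich and pyrimidine-rich enhancers, was 6.82, 7.69 and 7.33 in d20 and 8.07 and 8.78 in adult oocytes. Without adult in vitro replicate 1 Hnrnpc was called higher at d20 (1.45, adjusted p = 0.043), and that comparison rests on 1 adult array, a dim one.

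Between d26 and adult in vitro oocytes 0 of 65 genes were called and 0% of all genes, with 5 at an unadjusted p below 0.05. Sf3b3 (d26 minus adult -1.40, SE 0.42, adjusted p = 0.466), Prpf4 (2.33, SE 0.90, adjusted p = 0.608) and Lsm12 (-2.34, SE 0.99, adjusted p = 0.648) had the smallest p-values. Between d20 and d26 0 of 65 genes and 0% of all genes were called, with 12 at an unadjusted p below 0.05. Lsm12 (d20 minus d26 3.02, SE 0.89, adjusted p = 0.414), Snrpd3 (-1.06, SE 0.31, adjusted p = 0.414) and Lsm6 (1.84, SE 0.68, adjusted p = 0.414) came first. Lsm12 passed without d26 in vitro replicate 1 (4.28, adjusted p = 0.0361).

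Other genes of the splicing machinery were read from 7 lists that exclude the families above. They name 143 genes, of which 120 were tested. In vivo 26 of these were higher at MII than in GV oocytes and 25 lower, and in vitro 29 were higher and 21 lower. Over all genes tested the shares were 18.3% higher and 12.3% lower in vivo and 18.4% and 12.9% in vitro. Named examples are the largest called rises and falls of the in vivo comparison. Without normalization 10 of the 26 rises in vivo and 22 of the 29 in vitro turned sign, against 0 of the 25 and 21 falls, and under median scaling 0 of either did. The median of all genes was lower without normalization, so falls could hardly turn sign there.

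The lists of core components held more falls than rises. Of 18 U1, U5 and minor snRNP proteins 2 rose and 6 fell in vivo, led by Eftud2, the GTPase of the U5 snRNP (-2.91, SE 0.73, adjusted p = 0.00774), and Usp39, a tri-snRNP protein (-2.90, SE 0.27, adjusted p = 6.77e-06), with Luc7l2, a U1-associated protein, rising (1.64, SE 0.40, adjusted p = 0.00684, but -0.32 without normalization). Of 13 branch point and 3' splice site factors 3 rose and 5 fell. Puf60, a poly(U)-binding factor, went from 9.27 in GV to 3.07 at MII, the filter level (-6.20, SE 0.68, adjusted p = 2.46e-05), and Ddx46, a helicase of the U2 snRNP, rose (1.85, SE 0.31, adjusted p = 0.000545). Of 21 genes of the Prp19 complex and the catalytic step 1 rose, Bcas2 (2.11, SE 0.60, adjusted p = 0.0166), and 5 fell, led by Bud31 (-4.89, SE 0.46, adjusted p = 7.76e-06). In vitro the 3 lists had 2 rises and 5 falls, 3 and 5, and 2 and 3.

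Of 10 tested genes for snRNP assembly 1 rose and 3 fell in vivo, and 2 rose and 2 fell in vitro. Snupn, the adaptor that carries capped snRNPs back into the nucleus, went from 9.37 in GV oocytes to 4.30 at MII (-5.07, SE 0.87, adjusted p = 0.000605), Clns1a of the methylosome fell (-1.95, SE 0.31, adjusted p = 0.000348), and Tgs1, which trimethylates the snRNA cap, rose (1.84, SE 0.53, adjusted p = 0.017). Of 4 genes tested from the exon junction complex list 0 rose and 2 fell in both comparisons, Ddx39b (-4.41, SE 0.52, adjusted p = 4.25e-05) and Rbm8a (-1.61, SE 0.56, adjusted p = 0.0462). Ddx39b was listed with this complex but is not a core subunit of it.

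The SR-related proteins and SR kinases held 9 rises and 0 falls among 22 tested in both comparisons. In vivo Srrm1 (2.16, SE 0.40, adjusted p = 0.00108) and Son (1.76, SE 0.42, adjusted p = 0.00583), both nuclear speckle proteins, were among them, as were Pnn (1.64, SE 0.31, adjusted p = 0.00111) and Srek1 (1.57, SE 0.34, adjusted p = 0.00303, but -0.39 without normalization). Their median was 0.81 in vivo and 0.38 in vitro. Of 32 other splicing regulators 10 rose and 4 fell in vivo, with Rbfox1 (2.32, SE 0.49, adjusted p = 0.00233) and Ptbp3 (1.79, SE 0.39, adjusted p = 0.00287, but -0.15 without normalization) rising most and Nono (-2.40, SE 0.25, adjusted p = 1.61e-05) and Celf1 (-1.86, SE 0.43, adjusted p = 0.00429) falling most, and 11 rose and 4 fell in vitro.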

How the data were processed

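The authors deposited an intensity for each of 45101 probe sets on 15 arrays. The submitters' processing notes name MAS5, with no version, and a scaling target is not given either. GEO's annotation of the array gave 1 symbol to 34945 probe sets, several to 932 and none to 9160, and 34741 were updated through RefSeq's gene table. After 64 control probe sets were left out, log2 intensities were quantile normalized over the 15 arrays, and the upper 50% by mean (22519 probe sets) were tested. Each group had a coefficient in limma 3.58.1 (R 4.3.3) with an intensity trend and 9 residual degrees of freedom, and adjusted p-values are Benjamini-Hochberg values over all probe sets tested. Python 3.11.15, pandas 2.3.3 and matplotlib 3.10.9 made tables and figures. The fit was tested on simulated data.

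The genes and lists were chosen with earlier results of these data known. Values on every array are given for, per family, the gene with the highest mean and the largest called rise and fall in each comparison with GV, for related lists at most 4 of the largest called changes in vivo are named, and elsewhere the 3 smallest p-values; ratios within arrays, the comparison of GV with all 13 MII arrays and the related lists under other scalings were added after values were seen, and other genes, probe sets and settings were named for their calls. The alternatives were intensities as deposited, median scaling, no filter or the upper 30%, a pseudocount of 14.4, only the arrays compared, no trend, array weights, no dim arrays (under 4000 probe sets above 200), each array left out, and every tested probe set. The number of arrays limits the precision.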

Additional observations from a re-analysis of the deposited data

How the results depend on the processing

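Scaling had the strongest effect on the counts of genes that differed from GV oocytes. In vivo 12 of the 65 genes were called without normalization and 21 under median scaling, with 0 and 7 of these higher. In vitro the totals were 22 and 26, with 0 and 8 higher. Leaving out each array in turn gave 24 to 42 calls in vivo (15 to 25 higher, 9 to 17 lower) and 30 to 41 in vitro (18 to 25 higher, 11 to 16 lower), with fewest where a GV array was left out in vivo. Other comparisons went from 0 to 1 call for d26 in vivo against in vitro, with array weights and without the dim arrays (0 to 1 with an array left out), to 1 for the average over ages with array weights (0 to 2 with an array left out), and to 0 to 1 for d20 against adult and d20 against d26 with an array left out. The cause was not tested. Under the filters, the pseudocount, array weights, no trend, only the arrays compared and no dim arrays, 18 to 24 of the 24 rises and 11 to 16 of the 16 falls remained called in vivo, and 20 to 24 and 13 to 16 in vitro.

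Without normalization the sign turned in vivo for Sf3b4 (-0.13), Sf3b6 (-0.057), Prpf38b (-0.11), Prpf39 (-0.32), Prpf4b (-0.54), Srsf6 (-0.10), Hnrnpa0 (-0.032) and Hnrnpm (-0.66). In vitro it turned for Snrpb2 (-1.18), Snrpd3 (-0.0018), Lsm1 (-0.28), Lsm7 (-0.34), Lsm8 (-0.69), Sf3b6 (-0.63), Prpf38b (-0.46), Prpf39 (-1.18), Prpf4b (-0.48), Srsf3 (-0.48), Srsf6 (-0.93), Srsf10 (-0.95), Srsf11 (-0.29), Hnrnpa0 (-1.24), Hnrnpdl (-0.24), Hnrnph1 (-1.25), Hnrnph3 (-0.63), Hnrnpll (-1.74) and Hnrnpm (-1.16), and under median scaling for Hnrnpll (-0.33). Genes newly called lower in vitro without normalization were Snrpb (-3.86), Lsm4 (-3.78), Lsm12 (-3.95), Sf3b5 (-2.39), Srsf2 (-3.10) and Srsf9 (-3.10). No call of the 65 genes changed sign under the other filters, the pseudocount, the array weights or the arrays left out. No paired analysis was possible because the labels give the groups no shared replicate numbers.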
